A study of Mus musculus with 8 samples.

Results

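The translation efficiency (TE) of liver mRNAs was described in mice on a high-fat diet without betaine. TE was the mean RPKM of ribosome-protected fragments (RPFs) over the mean RPKM of mRNA, where RPKM is the number of reads scaled to the length of the gene and the total reads of the library. Member genes were those with an mRNA RPKM of at least 1 and an RPF RPKM of at least 10 in both libraries of each assay. They numbered 3991 of the 24079 gene symbols found in both assays, and 3941 of them were protein coding in GENCODE M21. Among them, mRNAs for ribosomal proteins, respiratory chain subunits and most apolipoproteins, which are short or abundant, were among those with the fewest RPFs per mRNA, and mRNAs for lysosomal proteins were above the median.

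A translating ribosome shields a short stretch of mRNA from RNase, and the number of such fragments per mRNA rises with the rate of initiation and with the time that ribosomes stay on the mRNA. In liver, a few secreted proteins such as albumin and the apolipoproteins take a large part of all mRNA. mRNAs for ribosomal proteins start with a run of pyrimidines, the TOP motif, through which LARP1 is known to hold them back from polysomes when mTORC1 is inactive, and other mRNAs are held back by upstream open reading frames or by binding sites for iron regulatory proteins.

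The livers came from male C57BL/6 mice that received a diet with 45% of its energy from fat from week 8 of age and were killed at week 25 (M group, called HF in the labels). The B group (HB in the labels) was fed likewise and drank water that held 2% (w/v) betaine, and it served here as an independent set of libraries. The study's methods state 17 weeks of diet and the labels 25. RNA-seq and Ribo-seq libraries were numbered M1 and M2, or B1 and B2, in each group. The methods state that 2 mice per group, those nearest the mean body weight, were sequenced, whereas the labels describe pooled preparations, so the tests measure the spread between libraries, which may be technical.

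The M libraries held 11661208 and 11824128 mRNA reads and 387980 and 1056546 RPF reads, as recovered from the steps of 1 read in the deposited RPKM. The median member gene had 31 RPF reads in M1, 80 in M2 and 679 and 675 mRNA reads. The precision of a TE was therefore limited by the RPF libraries, and 18 members had 3 or fewer RPF reads in a library. The hepatocyte markers Alb, Ttr, Apoa1, Cps1, Serpina1a and Cyp2e1 summed to 44909 and 47629 mRNA RPKM, against 2.89 and 4.05 for 4 cholangiocyte markers. The mRNA libraries were made from polyadenylated RNA. The RPF libraries were made from RNase-protected fragments of about 28 bases, from tissue treated with cycloheximide, after depletion of ribosomal RNA, so TE compares libraries of different chemistry.

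The rule shapes what can be seen. Of 10196 genes that met the mRNA threshold, 39.1% were members, so that a low mRNA could enter only with a high TE. Of 690 genes with at least 100 mRNA RPKM in both libraries, 95.9% were members. The 28 that were not have no TE here. Mup8, a major urinary protein with near-identical copies among which reads could be divided, had 721.7 and 1471 mRNA RPKM and 0 RPF reads in both libraries. Hamp2, a homologue of the hepcidin gene, had 643.3 and 485.6 mRNA RPKM with 0 and 1 RPF reads, and Ndufb4, a complex I subunit, had 381.4 and 384.9 mRNA RPKM with 0 and 3 RPF reads. At the RPF threshold, Taf10 was just inside with 10.0 RPF RPKM in M2 and Khdrbs3 just outside with 9.9998. At the mRNA threshold, Tbc1d8b was just inside with 1.02 mRNA RPKM in M1 and Zfp652 just outside with 0.952 in M2.

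Over the 3991 members, TE had a median of 1.41, quartiles of 0.700 and 2.56, and a range of 0.0165 to 333.1. The gene at the 95th percentile (5.91) carried 23.1 times as many RPFs per mRNA as the gene at the 5th percentile (0.256). The order of genes was similar in the library pairs M1 and M2, which share no library (Spearman's correlation coefficient 0.898 across the 3991 genes, a description), and the median gene differed by 0.38 on the log2 scale between them.

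To test single genes, 9588 genes whose mean RPKM was 1 or more in both assays were fitted with limma on log2(RPKM + 0.1), each library shifted to the same median over the members. The coefficient is the relative TE on the log2 scale, given below with its standard error. Among members its median was 0.21, and its quartiles were -0.80 and 1.06. A gene passed the test when its Benjamini-Hochberg adjusted p over all fitted genes was under 0.05 and its relative TE lay beyond 1 in either direction. This held above for 1047 members (26.2%) and below for 805 (20.2%), against 14.8% and 24.2% of all fitted genes. These shares are the background for the counts of each gene class. Unless stated otherwise, 2 values of a gene are those of M1 and M2, in that order. A fit without 1 library leaves 1 library in that assay, so its spread comes from the other assay only, and its effect size is given alone. RPKM rescaled to a common sum over the members moved the median relative TE to 1.02, and unshifted RPKM moved it to 0.48, so classes are compared with the median member. Calls, however, were cut at 1 and -1 around 0 and not around the member median of 0.21. A call above thus needed a smaller distance from the median member than a call below. Calls also followed abundance and length. When the members were put into 10 equal bins, 380 of 400 in the bin with the least mRNA (median 3.67 RPKM) passed above, and 254 of 399 in the bin with the most (median 406.3 RPKM) passed below. Of the shortest (median 669 bases), 228 of 400 passed below. A scarce mRNA became a member only with a high TE, so its call above is to be read against the bin with the least mRNA. Among the genes named below, such scarce mRNAs are Eif4ebp2, Foxo3, Fto, Hist1h4m, Idi1, Kdr, Klf9, Reln, Rora and Thrb.

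**Figure D1:**
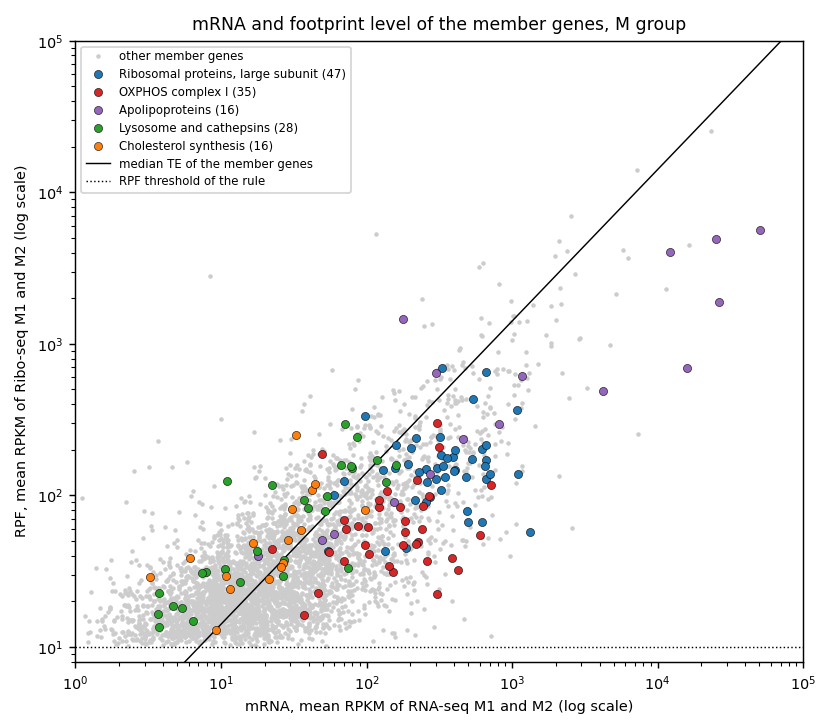
Mean mRNA RPKM (x axis, log scale) and mean RPF RPKM (y axis, log scale) of each member gene in the M group, with 5 gene classes in colour and their numbers of members in parentheses. The solid line marks the median TE of 1.41 and the dotted line the RPF threshold of 10. Most ribosomal protein, complex I and apolipoprotein genes lie below the line, and most lysosomal and cholesterol synthesis genes lie above it.

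Gene lists for 46 functional classes covered 1026 members, and 42 classes had at least 5. The class medians of relative TE ran from -1.84 (major urinary proteins) to 2.29 (long noncoding RNAs). 27 of the 42 classes lay below the median of all members and 15 above.

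**Figure D2:**
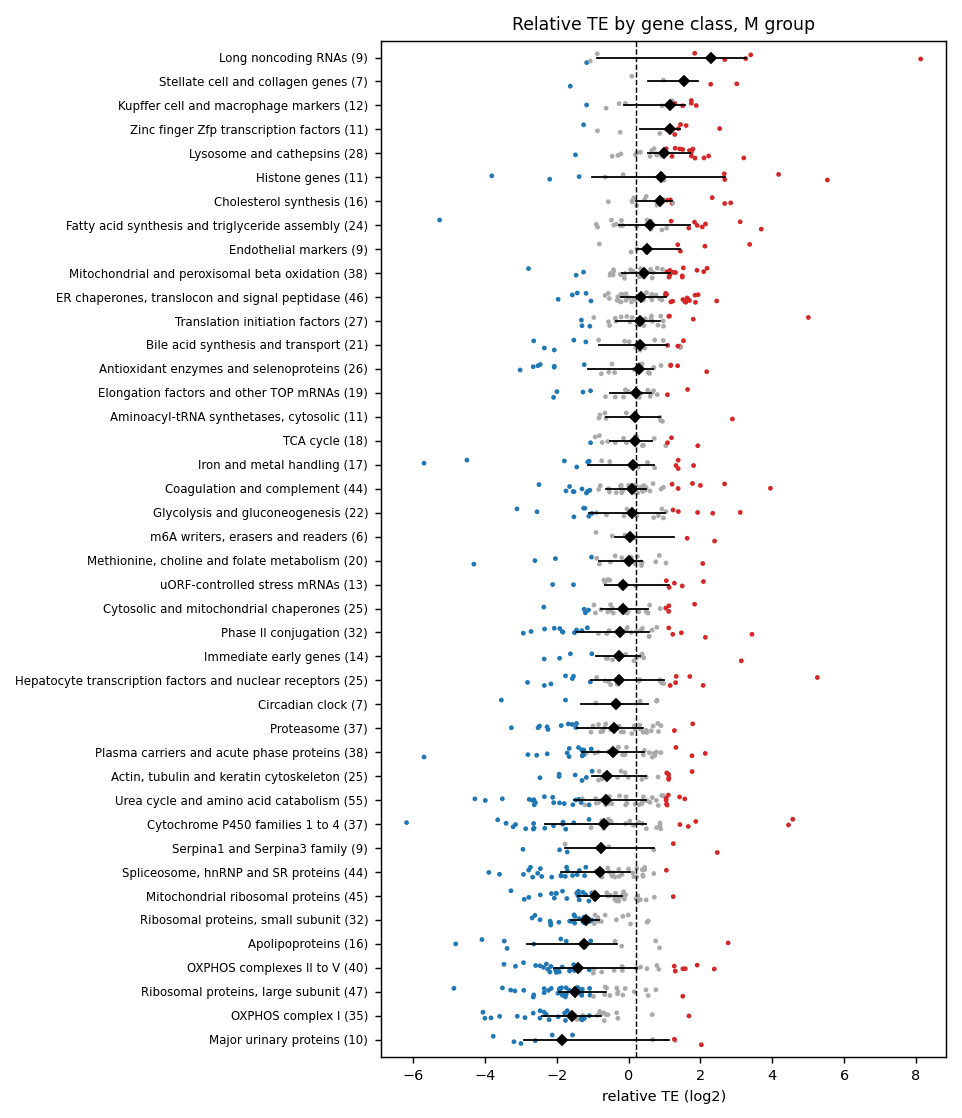
Relative TE (log2, x axis) of the members of each of the 42 classes with at least 5 members, whose number is given in parentheses. Points are genes, red where the test was passed above, blue where it was passed below and grey otherwise, diamonds are class medians, horizontal lines the quartiles, and the dashed line the median of all members (0.21). The lowest rows hold the major urinary, respiratory chain, ribosomal and apolipoprotein genes.

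Ribosomal protein mRNAs carried few RPFs. For the large subunit, 47 of 48 listed genes were members. Their median relative TE was -1.49, 43 lay below the median of all members, and 32 passed the test below (68.1%, against 20.2% of all members) and 1 above. For the small subunit, 32 of 33 were members, the median was -1.18, and 19 passed below (59.4%) and 0 above. Both classes are short and abundant, with median transcripts of 734 and 656.5 bases and median mRNA levels of 330.6 and 309.3 RPKM. The bin of members with the most mRNA (median 406.3 RPKM) had a median relative TE of -1.51, and 254 of 399 passed below. Neither class median was below that of the bin. Among members of like length the class medians lay -0.39 and -0.23 from the median. Large subunit genes took 1.25% and 1.40% of the mRNA reads and 0.617% and 0.609% of the RPF reads of M1 and M2.

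Rpl36 (chr17:56613416-56614243) was the lowest of them, with 1311 and 1360 mRNA RPKM and 44.3 and 69.8 RPF RPKM, a TE of 0.0427 and a relative TE of -4.86 ± 0.29 (limma, adjusted p = 0.00116). Its RPF values rested on 7 and 30 reads. Rpl28 had 1036 and 1169 mRNA RPKM and 155.9 and 120.2 RPF RPKM, a TE of 0.125 and a relative TE of -3.28 ± 0.21 (limma, adjusted p = 0.00116). In the small subunit, Rps15 had 686.6 and 718.9 mRNA RPKM and 133.8 and 131.0 RPF RPKM, a TE of 0.188 and a relative TE of -2.68 ± 0.19 (limma, adjusted p = 0.00125), and Rps18 had 1478 and 1407 mRNA RPKM and 314.8 and 261.9 RPF RPKM (relative TE -2.61 ± 0.19, adjusted p = 0.00125). Each RPF value was below both mRNA values for Rpl36, Rpl28, Rps15 and Rps18. The class median was met by Rpl12, with 271.8 and 326.0 mRNA RPKM against 117.2 and 140.9 RPF RPKM (relative TE -1.49), and closely by Rps10, with 450.9 and 495.0 mRNA RPKM against 256.3 and 232.6 RPF RPKM (relative TE -1.23). Rpl9 was the exception among large subunit genes, with 90.2 and 104.8 mRNA RPKM and 337.7 and 332.9 RPF RPKM, a TE of 3.44 and a relative TE of 1.51 ± 0.20 (limma, adjusted p = 0.00375), and it no longer passed per coding length (0.69). Ribosomal protein genes have many near-identical copies in the genome, and how reads were divided among the copies was not tested.

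A pyrimidine run was searched in the RefSeq promoter windows (GRCm38.p6) because TOP mRNAs are defined by their first bases. The run was a C followed by at least 7 bases that are each C or T, on the transcribed strand, in the 20 bases before to 30 bases after the annotated start. Of 58 ribosomal protein members with a window, 32 held such a run (55.2%), against 19.9% of 3221 members and 17.4% of 17638 genes in both assays. The ribosomal protein genes with a run had a median relative TE of -1.66, and 23 of 32 passed the test below. Those without one had a median of -0.97, with 12 of 26 below. Over all members the medians were 0.19 with a run and 0.18 without.

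The windows of 4 ribosomal protein genes that passed the test below are shown first, and then those of Rps6, Rpl5 and Eef1a1, which did not, to show that the run is present on both sides. Capitals mark the pyrimidine run, written 5′ to 3′ on the transcribed strand.
Rpl28, chr7:4792955-4792984, plus strand: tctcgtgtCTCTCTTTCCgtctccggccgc
Rpl14, chr9:120571501-120571530, plus strand: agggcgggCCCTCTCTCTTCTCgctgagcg
Rps18, chr17:33955646-33955675, minus strand: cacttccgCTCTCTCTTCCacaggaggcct
Fau, chr19:6057936-6057965, plus strand: cgcccccaCTTCTTCCTCTTTCTTgactcc
Rps6, chr4:86857347-86857376, minus strand: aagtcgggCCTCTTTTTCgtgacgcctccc
Rpl5, chr5:107900500-107900529, plus strand: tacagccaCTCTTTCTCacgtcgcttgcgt
Eef1a1, chr9:78481708-78481737, minus strand: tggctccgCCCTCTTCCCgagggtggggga
The first 4 genes had relative TEs of -3.28, -2.92, -2.61 and -1.94, and the last 3 had 0.05, 0.48 and 0.69. A match is a description of these letters and not a mapped start site.

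The other parts of the translation machinery were near the median. The 19 elongation factors and other TOP mRNAs had a median relative TE of 0.21, and 2 passed the test above and 4 below. Eef1a1, which brings aminoacyl-tRNA to the ribosome, had 902.6 and 1051 mRNA RPKM and 1840 and 1982 RPF RPKM, a TE of 1.96 and a relative TE of 0.69 ± 0.20 (limma, adjusted p = 0.0387), which is short of the threshold of 1. Eef2, which moves the ribosome along, had 196.0 and 197.3 mRNA RPKM and 365.8 and 324.9 RPF RPKM (relative TE 0.53 ± 0.19, adjusted p = 0.0671), and its relative TE was -0.48 on a common length. Tpt1, a TOP mRNA that is translated in a growth-dependent way, passed below with 1156 and 1349 mRNA RPKM and 677.5 and 778.1 RPF RPKM, a TE of 0.581 and a relative TE of -1.06 ± 0.21 (limma, adjusted p = 0.0121). Tpt1 no longer passed without RNA-seq library M2 (-0.93) and without Ribo-seq library M1 (-0.92). Pabpc1, the cytoplasmic poly(A)-binding protein, had 45.6 and 72.3 mRNA RPKM and 107.9 and 103.4 RPF RPKM (relative TE 0.60 ± 0.29, adjusted p = 0.142).

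Among 27 initiation factors, 4 passed the test above and 3 below, with a median of 0.32. Eif4ebp2, which keeps the cap-binding protein eIF4E from its partner, was the highest with 2.26 and 2.18 mRNA RPKM and 101.0 and 80.0 RPF RPKM, a TE of 40.8 and a relative TE of 5.00 ± 0.24 (limma, adjusted p = 0.00107). Eif4ebp1, its paralogue, passed below with 35.1 and 30.4 mRNA RPKM and 15.8 and 16.4 RPF RPKM, a TE of 0.490 and a relative TE of -1.30 ± 0.22 (limma, adjusted p = 0.00764). Eif4ebp1 no longer passed without RNA-seq library M1 (-1.21). Thus the RPF levels of the paralogues differed in the direction opposite to their mRNA levels. Of 11 aminoacyl-tRNA synthetases, 1 passed the test above and 0 below, and the median was 0.19. The one above was Dars, whose RPKM rests on 2232 bases in RNA-seq and 693 in Ribo-seq, and whose relative TE was 1.19 on a common length.

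Nuclear-encoded subunits of the respiratory chain also carried few RPFs. Of 35 complex I genes, 22 passed the test below (62.9%) and 1 above, with a median relative TE of -1.57. Of 40 genes of complexes II to V, 23 passed below (57.5%) and 6 above, with a median of -1.42. Among members of like length these medians were -0.51 and -0.39 from the median. The classes had medians of 169.1 and 247.2 mRNA RPKM. The bins of members at 124.1 and 406.3 mRNA RPKM had median relative TEs of -1.05 and -1.51. Complex I genes took 0.474% and 0.505% of the mRNA reads and 0.186% and 0.224% of the RPF reads of M1 and M2. The 45 members among mitochondrial ribosomal proteins had a median of -0.93, with 19 below and 1 above, and -0.12 among members of like length. mRNAs of the mitochondrial genome were not analysed here.

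Ndufb7, an accessory subunit of complex I, had 432.8 and 413.8 mRNA RPKM and 33.9 and 30.2 RPF RPKM, a TE of 0.0756 and a relative TE of -4.00 ± 0.19 (limma, adjusted p = 0.00107). Ndufa5 had 628.5 and 572.2 mRNA RPKM and 35.4 and 73.6 RPF RPKM (relative TE -3.83 ± 0.39, adjusted p = 0.00208). Cox5b of cytochrome oxidase had 591.7 and 648.9 mRNA RPKM and 108.7 and 89.8 RPF RPKM, a TE of 0.160 and a relative TE of -2.92 ± 0.20 (limma, adjusted p = 0.00125), and Atp5e of ATP synthase had 1012 and 1127 mRNA RPKM and 93.4 and 146.3 RPF RPKM (relative TE -3.47 ± 0.29, adjusted p = 0.00153). RPF stayed under mRNA RPKM in both libraries of Ndufb7, Ndufa5, Cox5b and Atp5e. Several subunits went the other way. Sdha, the flavoprotein of succinate dehydrogenase that is also a TCA cycle enzyme, had 29.8 and 29.7 mRNA RPKM and 159.6 and 222.8 RPF RPKM, a TE of 6.43 and a relative TE of 2.38 ± 0.26 (limma, adjusted p = 0.00233). Ndufab1, the mitochondrial acyl carrier protein, had 40.3 and 58.1 mRNA RPKM and 187.1 and 189.0 RPF RPKM (relative TE 1.68 ± 0.26, adjusted p = 0.00539). Among mitochondrial ribosomal proteins, Mrpl18 was the lowest with 206.7 and 208.6 mRNA RPKM and 29.6 and 22.7 RPF RPKM, a TE of 0.126 and a relative TE of -3.28 ± 0.22 (limma, adjusted p = 0.00116), and Mrpl3 the highest with 1.24 ± 0.26. Mrpl3 no longer passed without RNA-seq library M1 (1.38) and without RNA-seq library M2 (1.10). Exons of Mrpl18 overlap those of Tcp1 on the genome.

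Enzymes of fatty acid oxidation were near the median. Of 38 genes of beta oxidation, 12 passed above (31.6%, against 26.2% of all members) and 3 below, with a median of 0.44, so the share above was near that of all members. Per coding length the median was -0.05 from that of all members. Etfdh, which passes electrons from fatty acid oxidation to ubiquinone, had 32.5 and 23.1 mRNA RPKM and 139.0 and 164.7 RPF RPKM, a TE of 5.46 and a relative TE of 2.18 ± 0.26 (limma, adjusted p = 0.00284). Etfb, a subunit of the flavoprotein that feeds Etfdh, passed below with 652.7 and 579.8 mRNA RPKM and 96.9 and 120.4 RPF RPKM, a TE of 0.176 and a relative TE of -2.79 ± 0.22 (limma, adjusted p = 0.00143). Abcd3, a peroxisomal fatty acid transporter, had 60.3 and 52.3 mRNA RPKM and 232.0 and 363.5 RPF RPKM (relative TE 2.09 ± 0.29, adjusted p = 0.00414). Both RPF values were above both mRNA values for Etfdh and Abcd3, and both were below for Etfb. In the TCA cycle, 3 passed the test above and 1 below of 18 members. None of the 4 ketogenesis members passed the test, and the highest was Acat1 at 0.72.

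Genes of fatty acid synthesis and triglyceride assembly had no stable side of the median. Of 24 genes of fatty acid synthesis and triglyceride assembly, 8 passed above (33.3%) and 1 below, with a median of 0.59. The share above was close to the background of 26.2%. Its distance from the member median was 0.39, but -0.17 among genes of like length, -0.11 per coding length and between -0.08 and 0.86 over the 4 library pairings, so its side of the median turned. They took 1.08% and 0.823% of the mRNA reads and 1.64% and 3.28% of the RPF reads of M1 and M2. Scd1, the stearoyl-CoA desaturase, differed between the libraries of an assay, with 839.4 and 351.4 mRNA RPKM and 1845 and 4559 RPF RPKM, a TE of 5.38 and a relative TE of 2.14 ± 0.58 (limma, adjusted p = 0.0308). It no longer passed with no filter on mean RPKM (adjusted p = 0.0779) or with no variance trend (0.0636). Gpam, which starts triglyceride synthesis, had 5.06 and 7.45 mRNA RPKM and 84.0 and 113.5 RPF RPKM, a TE of 15.8 and a relative TE of 3.69 ± 0.31 (limma, adjusted p = 0.00159). Fads2, the delta-6 desaturase, had 38.5 and 36.2 mRNA RPKM and 309.4 and 492.0 RPF RPKM, a TE of 10.7 and a relative TE of 3.11 ± 0.29 (limma, adjusted p = 0.00180). Each RPF value was above both mRNA values for Scd1, Gpam and Fads2. On a common length the relative TEs of Gpam and Fads2 were 4.31 and 4.04. Mlxipl (chr5:135089890-135138382), which encodes the glucose-responsive factor ChREBP, was the only one below, with 433.9 and 503.8 mRNA RPKM and 11.1 and 19.5 RPF RPKM, a TE of 0.0326 and a relative TE of -5.26 ± 0.34 (limma, adjusted p = 0.00116). Its RPF values rested on 15 and 72 reads.

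Of 16 cholesterol synthesis members out of 27 listed, 6 passed above (37.5%) and 0 below, with a median of 0.88. Its distance from the member median was 0.67, but 0.25 on a common length and 0.11 per coding length. Idi1, which isomerizes isopentenyl diphosphate, had 2.93 and 3.54 mRNA RPKM and 28.8 and 28.7 RPF RPKM, a TE of 8.88 and a relative TE of 2.84 ± 0.25 (limma, adjusted p = 0.00165). Msmo1, a sterol methyl oxidase, had 6.02 and 6.21 mRNA RPKM and 30.7 and 46.1 RPF RPKM (relative TE 2.33 ± 0.30, adjusted p = 0.00338). Tm7sf2, a sterol reductase, had 24.5 and 27.4 mRNA RPKM and 34.9 and 32.6 RPF RPKM (relative TE 0.10 ± 0.22, adjusted p = 0.730), just under the median member. RPF exceeded mRNA RPKM in both libraries of Idi1 and Msmo1. Cyp51 was not a member, since its RPF RPKM were 7.70 and 8.91. The median over the 26 fitted genes of the class, members or not, was 1.12 above the median of all fitted genes that met the mRNA threshold.

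Most apolipoprotein mRNAs were abundant and carried few RPFs. Of 16 members, 11 passed below (68.8%) and 1 above, and their median was -1.25. The class had a median of 638.0 mRNA RPKM, and the bin of members with the most mRNA had a median relative TE of -1.51, so the class median was not below that of abundant mRNAs in general. The class took 9.32% and 9.87% of the mRNA reads and 3.95% and 3.61% of the RPF reads of M1 and M2. Apoc3 (chr9:46232933-46235636), an inhibitor of lipoprotein lipase, had 17365 and 14659 mRNA RPKM and 616.2 and 768.7 RPF RPKM, a TE of 0.0432 and a relative TE of -4.81 ± 0.22 (limma, adjusted p = 0.00107). Apoa2, the most abundant mRNA of the class, had 50662 and 50601 mRNA RPKM and 5041 and 6158 RPF RPKM, a TE of 0.111 and a relative TE of -3.46 ± 0.21 (limma, adjusted p = 0.00116). Apoc1 had 24881 and 27990 mRNA RPKM and 1828 and 1954 RPF RPKM (relative TE -4.08 ± 0.20, adjusted p = 0.00107). Apoa1, the main protein of HDL, had 13425 and 11044 mRNA RPKM and 4657 and 3415 RPF RPKM, a TE of 0.330 and a relative TE of -1.89 ± 0.22 (limma, adjusted p = 0.00277). Both RPF values were below both mRNA values for Apoc3, Apoa2, Apoc1 and Apoa1.

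Apob (chr12:7977648-8016835), the large structural protein of VLDL, was the single apolipoprotein above, with 181.8 and 172.0 mRNA RPKM and 1512 and 1414 RPF RPKM, a TE of 8.27 and a relative TE of 2.77 ± 0.18 (limma, adjusted p = 0.00116). It had the longest mRNA of the class, 13909 bases, against 385 for Apoa2. Its RPF RPKM exceeded that of Apoc3, although the mRNA RPKM of Apoc3 was the higher one in both libraries. Apoa4 had 364.2 and 232.1 mRNA RPKM and 886.5 and 397.1 RPF RPKM (relative TE 0.75 ± 0.41, adjusted p = 0.190). Without Ribo-seq library M2, which leaves 1 Ribo-seq library, the relative TE of Apoa4 was 1.29.

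Plasma carriers lay below the median and coagulation factors near it. Alb, which encodes albumin, had 21470 and 24883 mRNA RPKM and 27734 and 22846 RPF RPKM, a TE of 1.09 and a relative TE of -0.15 ± 0.20 (limma, adjusted p = 0.568), so its assays overlapped, and per coding length it passed below (-1.13). Of 38 plasma carriers and acute phase proteins, 15 passed below (39.5%) and 3 above (7.89%), with a median of -0.44. Hp, the haemoglobin carrier haptoglobin, had 4764 and 4723 mRNA RPKM and 1140 and 835.3 RPF RPKM, a TE of 0.208 and a relative TE of -2.56 ± 0.21 (limma, adjusted p = 0.00148). Pzp, a broad protease inhibitor, had 206.9 and 287.5 mRNA RPKM and 1472 and 1142 RPF RPKM, a TE of 5.29 and a relative TE of 2.13 ± 0.25 (limma, adjusted p = 0.00279). Hamp, the iron hormone hepcidin, had 5918 and 8675 mRNA RPKM and 63.5 and 442.9 RPF RPKM, a TE of 0.0347 and a relative TE of -5.69 ± 0.89 (limma, adjusted p = 0.00570), its RPF values rested on 5 and 95 reads, and its relative TE was -6.71 on a common length. Both RPF values were above both mRNA values for Pzp, and both were below for Hp and Hamp. Of 44 coagulation and complement genes, 6 passed the test above and 9 below, with a median of 0.10. C9 of the membrane attack complex had 13.2 and 21.8 mRNA RPKM and 144.6 and 119.7 RPF RPKM (relative TE 2.67 ± 0.31, adjusted p = 0.00265), and Proc, the anticoagulant protein C, had 584.7 and 672.5 mRNA RPKM and 164.1 and 110.8 RPF RPKM (relative TE -2.49 ± 0.25, adjusted p = 0.00199).

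In families of near-identical genes the members went apart. Of 10 major urinary protein genes, 6 passed below and 2 above, although the class as a whole took 2.46% and 3.65% of the mRNA reads and 2.37% and 2.88% of the RPF reads of M1 and M2. Mup17 had 174.7 and 272.0 mRNA RPKM and 14.6 and 25.6 RPF RPKM (relative TE -3.77 ± 0.39, adjusted p = 0.00212), whereas Mup21 had 216.4 and 348.9 mRNA RPKM and 1290 and 1422 RPF RPKM (relative TE 2.02 ± 0.29, adjusted p = 0.00438). In the Serpina1 and Serpina3 family, Serpina1c had 2991 and 3520 mRNA RPKM and 566.5 and 463.3 RPF RPKM (relative TE -2.94 ± 0.21, adjusted p = 0.00125), and Serpina3m had 103.4 and 70.8 mRNA RPKM and 619.9 and 531.7 RPF RPKM (relative TE 2.47 ± 0.24, adjusted p = 0.002003). How reads were divided among such copies was not tested, so these genes are uncertain one by one.

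Of 37 cytochrome P450 genes, 16 passed below (43.2%) and 5 above, with a median of -0.69. The class held the lowest member of all, Cyp2d13, with 643.9 and 782.9 mRNA RPKM and 10.96 and 12.7 RPF RPKM, a TE of 0.0165 and a relative TE of -6.18 ± 0.23 (limma, adjusted p = 0.00107) and 7 and 22 RPF reads. Cyp2d11, of the same subfamily, had 4.69 and 6.97 mRNA RPKM and 163.7 and 170.8 RPF RPKM, a TE of 28.7 and a relative TE of 4.57 ± 0.28 (limma, adjusted p = 0.00116). Cyp4a10, a fatty acid omega hydroxylase, had 693.1 and 276.8 mRNA RPKM and 50.7 and 49.0 RPF RPKM (relative TE -3.41 ± 0.43, adjusted p = 0.00318). RPF exceeded mRNA RPKM in both libraries of Cyp2d11, and stayed under it in those of Cyp2d13 and Cyp4a10. Cyp2d13 had no match in GENCODE M21, and an annotated exon of Cyp2d11 holds Mir7684. How reads were divided among the Cyp2d genes was not tested, so they too are uncertain one by one. Of 32 phase II conjugation genes, 5 passed the test above and 11 below. Gstt1, a glutathione transferase, had 581.8 and 413.2 mRNA RPKM and 58.0 and 104.3 RPF RPKM (relative TE -2.93 ± 0.36, adjusted p = 0.00305), and Ugt3a2, a sugar transferase, had 42.5 and 52.3 mRNA RPKM and 212.4 and 297.8 RPF RPKM (relative TE 2.14 ± 0.27, adjusted p = 0.00338). Bile acid genes passed the test in both directions equally, 5 above and 5 below of 21.

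Enzymes of amino acid breakdown lay below the median. Of 55 members of the urea cycle and amino acid catabolism, 18 passed below (32.7%) and 7 above, with a median of -0.62. Sds, serine dehydratase, had 918.3 and 734.9 mRNA RPKM and 57.6 and 45.5 RPF RPKM, a TE of 0.0624 and a relative TE of -4.28 ± 0.22 (limma, adjusted p = 0.00112). Prodh2, which starts hydroxyproline breakdown, had 730.5 and 540.3 mRNA RPKM and 45.4 and 50.5 RPF RPKM, a TE of 0.0755 and a relative TE of -3.99 ± 0.23 (limma, adjusted p = 0.00116). Gamt, which makes creatine, had 455.4 and 468.1 mRNA RPKM and 37.3 and 64.0 RPF RPKM (relative TE -3.52 ± 0.32, adjusted p = 0.00168). Both RPF values were below both mRNA values for Sds, Prodh2 and Gamt. Aldh6a1, of valine breakdown, was the highest with 84.3 and 71.8 mRNA RPKM and 254.3 and 306.2 RPF RPKM (relative TE 1.56 ± 0.22, adjusted p = 0.00438).

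In glycolysis and gluconeogenesis, 5 passed the test above and 7 below of 22 members. Pgk1, phosphoglycerate kinase, had 40.1 and 38.97 mRNA RPKM and 152.5 and 216.8 RPF RPKM (relative TE 1.92 ± 0.26, adjusted p = 0.00385). In methionine, choline and folate metabolism, 1 passed the test above and 4 below of 20. Pcyt2, the rate-limiting enzyme of phosphatidylethanolamine synthesis, had 1224 and 914.0 mRNA RPKM and 67.0 and 62.5 RPF RPKM, a TE of 0.0606 and a relative TE of -4.31 ± 0.22 (limma, adjusted p = 0.00112), and Pcyt1a, which has the corresponding place in phosphatidylcholine synthesis, had 6.34 and 6.01 mRNA RPKM and 28.6 and 34.98 RPF RPKM, a TE of 5.15 and a relative TE of 2.06 ± 0.25 (limma, adjusted p = 0.00297). Across these enzymes, the mRNA of Pcyt2 was far more abundant than that of Pcyt1a, while their RPF levels were closer. Ahcy, which splits S-adenosylhomocysteine, had 523.8 and 398.8 mRNA RPKM and 89.3 and 92.4 RPF RPKM (relative TE -2.61 ± 0.22, adjusted p = 0.00153). Bhmt, which uses betaine to remethylate homocysteine, varied between libraries of each assay, with 1762 and 741.3 mRNA RPKM and 421.9 and 1332 RPF RPKM (relative TE -0.89 ± 0.66, adjusted p = 0.315). Without Ribo-seq library M2, which leaves 1 Ribo-seq library, the relative TE of Bhmt was -1.75.

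Some mRNAs have known translational control. Ferritin mRNAs carry an iron-responsive element. Fth1, the heavy chain, had 803.9 and 830.1 mRNA RPKM and 2397 and 2541 RPF RPKM, a TE of 3.02 and a relative TE of 1.32 ± 0.19 (limma, adjusted p = 0.00429), and Ftl1, the light chain, had 5901 and 5672 mRNA RPKM and 4427 and 3930 RPF RPKM, a TE of 0.722 and a relative TE of -0.75 ± 0.18 (limma, adjusted p = 0.0218), so the chains lay on opposite sides of the median. Only the heavy chain passed the test, but among genes with at least 20 reads in both Ribo-seq libraries the light chain passed (-1.07) and the heavy chain did not (1.00). Atf4, whose upstream reading frames hold back its translation, passed below with 99.7 and 88.3 mRNA RPKM and 14.9 and 45.98 RPF RPKM, a TE of 0.324 and a relative TE of -2.11 ± 0.55 (limma, adjusted p = 0.0268). Its call was lost with no filter on mean RPKM (adjusted p = 0.0618), with no variance trend (0.0555) and on RPKM rescaled to a common sum (0.0863). Azin1 and Odc1, which act on polyamine synthesis, passed above with relative TEs of 1.49 ± 0.23 (adjusted p = 0.00526) and 1.05 ± 0.21 (adjusted p = 0.0129), and Oaz1, whose frameshift is set by polyamines, passed above with 1.27 ± 0.24 (adjusted p = 0.00973). Odc1 no longer passed without RNA-seq library M1 (1.05) and without RNA-seq library M2 (1.05), although its effect size was unchanged in these fits with 1 RNA-seq library. Oaz1 no longer passed with at least 20 reads in both Ribo-seq libraries (0.95) or per coding length (0.79). Amd1 had 5.96 and 6.01 mRNA RPKM and 0 and 0.590 RPF RPKM and was not a member. Of the 13 members on a list of stress and polyamine mRNAs, most with known upstream frames, 5 passed the test above and 2 below, with a median of -0.16 and 8 of them below the member median.

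Among antioxidant enzymes and selenoproteins, 4 passed the test above and 7 below of 26. Selenop, the plasma selenium carrier, had 519.4 and 749.9 mRNA RPKM and 3825 and 3040 RPF RPKM, a TE of 5.41 and a relative TE of 2.17 ± 0.26 (limma, adjusted p = 0.00281). Selenok and Selenow, small selenoproteins, passed below, with 134.3 and 118.6 mRNA RPKM against 12.7 and 27.9 RPF RPKM (relative TE -3.02 ± 0.42, adjusted p = 0.004001) and 158.6 and 115.6 mRNA RPKM against 40.2 and 20.1 RPF RPKM (relative TE -2.52 ± 0.36, adjusted p = 0.00433). The exons of Selenop overlap those of Ccdc152. Mt1, a metallothionein, had 1348 and 475.8 mRNA RPKM and 95.1 and 19.2 RPF RPKM, a TE of 0.0627 and a relative TE of -4.50 ± 0.81 (limma, adjusted p = 0.00886), and its mRNA and RPF values differed several-fold between libraries.

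Genes of the endoplasmic reticulum were near the median, and those of the lysosome above it. Of 46 members of the chaperones, translocon and signal peptidase of the endoplasmic reticulum, 14 passed above (30.4%, near the 26.2% of all members) and 5 below. The median was 0.34, with 24 members above that of all members and 22 below. Canx, the lectin chaperone calnexin, had 15.6 and 24.4 mRNA RPKM and 135.8 and 124.5 RPF RPKM, a TE of 6.503 and a relative TE of 2.45 ± 0.29 (limma, adjusted p = 0.00274), and Dnajc3, an Hsp40 partner of BiP, had 15.2 and 18.2 mRNA RPKM and 86.4 and 62.5 RPF RPKM (relative TE 1.86 ± 0.25, adjusted p = 0.00380). 3 small proteins of the translocon complex, Sec61b, Sec61g and Ssr4, passed below with -1.57, -1.43 and -1.96. Sec61b no longer passed without RNA-seq library M2 (-1.23). It also did not pass with no filter on mean RPKM (adjusted p = 0.0651), no variance trend (0.0636) or no shift (0.0503). Of 28 lysosomal members, 13 passed above (46.4%) and 1 below, 23 were above the member median, and the class median was 0.98. Lysosomal genes took 0.280% and 0.299% of the mRNA reads and 0.676% and 0.627% of the RPF reads of M1 and M2. Scarb2 (chr5:92441314-92506833), the receptor that carries glucocerebrosidase, had 9.63 and 12.5 mRNA RPKM and 133.8 and 114.1 RPF RPKM, a TE of 11.2 and a relative TE of 3.21 ± 0.24 (limma, adjusted p = 0.00130). Lipa, the acid lipase that splits cholesteryl esters and triglycerides, had 22.8 and 22.03 mRNA RPKM and 106.7 and 127.4 RPF RPKM, a TE of 5.23 and a relative TE of 2.10 ± 0.22 (limma, adjusted p = 0.00230). Each RPF value was above both mRNA values for Canx, Dnajc3, Scarb2 and Lipa. Ctsa was the one below, with 72.0 and 76.1 mRNA RPKM and 41.4 and 24.9 RPF RPKM (relative TE -1.48 ± 0.28, adjusted p = 0.0102), and its exons overlap those of Neurl2 and Pltp.

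Of 37 proteasome members, 10 passed below and 2 above, with a median of -0.40. Among the low ones were the core subunits Psmb6, with 206.7 and 216.2 mRNA RPKM against 29.9 and 23.8 RPF RPKM (relative TE -3.26), and Psmb5, with 122.9 and 151.6 mRNA RPKM against 23.7 and 37.0 RPF RPKM (relative TE -2.48). The regulatory subunit Psmd11 passed above with 15.9 and 15.1 mRNA RPKM against 50.3 and 41.3 RPF RPKM (relative TE 1.27). Psmd11 no longer passed with at least 20 reads in both Ribo-seq libraries (0.95) or per coding length (0.58). Cytosolic and mitochondrial chaperones passed in both directions, 4 above and 4 below of 25, with the small heat shock protein Hspb1 at -2.36 ± 0.53 (adjusted p = 0.0168) and Hspa9, a mitochondrial Hsp70, at 1.84 ± 0.23 (adjusted p = 0.00322). In the cytoskeleton, 5 passed the test above and 7 below of 25, and Pfn1, the actin-binding profilin, had 260.4 and 271.5 mRNA RPKM and 91.8 and 77.2 RPF RPKM (relative TE -1.93 ± 0.20, adjusted p = 0.00212).

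mRNAs of splicing factors lay below the median. Of 44 spliceosome, hnRNP and SR protein members, 20 passed below (45.5%) and 1 above, with a median of -0.79. Srsf11 had 180.3 and 128.0 mRNA RPKM and 12.4 and 12.2 RPF RPKM, a TE of 0.0799 and a relative TE of -3.89 ± 0.25 (limma, adjusted p = 0.00116), and Hnrnph1 had 140.9 and 118.4 mRNA RPKM and 12.9 and 12.9 RPF RPKM, a TE of 0.0993 and a relative TE of -3.59 ± 0.22 (limma, adjusted p = 0.00116). RPF stayed under mRNA RPKM in both libraries of Srsf11 and Hnrnph1. Prpf8, the scaffold of the spliceosome, was the one above, with 23.2 and 22.1 mRNA RPKM and 54.8 and 59.5 RPF RPKM (relative TE 1.05 ± 0.22, adjusted p = 0.0129). Prpf8 no longer passed without RNA-seq library M1 (1.07), without RNA-seq library M2 (1.03) and without Ribo-seq library M2 (0.95). Per coding length it was -0.01. Of 25 hepatocyte transcription factors, 6 passed the test above and 7 below. The nuclear receptors Nr1i3 (CAR), Nr1h4 (FXR) and Nr1i2 (PXR) passed below, with 260.0 and 333.0 mRNA RPKM against 57.1 and 44.9 RPF RPKM (relative TE -2.81), 224.2 and 176.3 mRNA RPKM against 49.6 and 45.1 RPF RPKM (relative TE -2.35) and 132.7 and 128.7 mRNA RPKM against 52.0 and 23.97 RPF RPKM (relative TE -2.16). Foxo3 and Thrb passed above with 2.07 ± 0.31 (adjusted p = 0.00483) and 1.70 ± 0.26 (adjusted p = 0.00526). Of 7 clock genes, Ciart was the lowest at -3.54 ± 0.31 (adjusted p = 0.00162), and of 14 immediate early genes, Klf15 was the lowest at -2.35 ± 0.20 (adjusted p = 0.00162) and Klf9 the highest at 3.13 ± 0.23 (adjusted p = 0.00125).

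Zinc finger Zfp genes show the effect of the thresholds. Of 119 that met the mRNA threshold only 11 were members, with a median of 1.15 and 7 above, whereas the 107 fitted genes of the class lay -0.58 from the median of all fitted genes that met the mRNA threshold. Among 11 histone members, 4 passed the test above and 3 below. Hist1h4m, a replication-dependent gene whose mRNA has no poly(A) tail, had 2.96 and 2.09 mRNA RPKM and 152.7 and 137.9 RPF RPKM (relative TE 5.53 ± 0.26, adjusted p = 0.00107). H3f3a, which encodes a polyadenylated variant, had 116.9 and 109.1 mRNA RPKM and 30.9 and 28.8 RPF RPKM (relative TE -2.20 ± 0.20, adjusted p = 0.00172). The mRNA libraries selected poly(A), so a TE of an mRNA without a tail is not comparable with the rest. Of 16 genes that add, remove or read m6A and met the mRNA threshold, 6 were members, with a median of 0.04. Of these, Alkbh5 and Fto, the demethylases, passed above with 2.39 ± 0.22 (adjusted p = 0.00173) and 1.63 ± 0.26 (adjusted p = 0.00611), and none passed below.

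Markers of nonparenchymal cells were few among the members. Of 7 stellate cell and collagen members, 4 passed above and 1 below (median 1.53). Of 12 Kupffer cell and macrophage members, the counts were 5 and 1 (median 1.16), and of 9 endothelial members 4 and 0 (median 0.50). Reln, of stellate cells, had 2.35 and 2.04 mRNA RPKM and 27.1 and 18.2 RPF RPKM, a TE of 10.3 and a relative TE of 3.01 ± 0.30 (limma, adjusted p = 0.00199). Cd5l, secreted by Kupffer cells, had 11.3 and 18.8 mRNA RPKM and 69.6 and 51.1 RPF RPKM (relative TE 1.75 ± 0.33, adjusted p = 0.00986), whereas the Kupffer lectin Clec4f passed below with 72.6 and 64.4 mRNA RPKM and 35.4 and 38.2 RPF RPKM (relative TE -1.17 ± 0.21, adjusted p = 0.00907). Clec4f no longer passed without RNA-seq library M1 (-1.10). Kdr, the endothelial VEGF receptor, had 1.87 and 2.64 mRNA RPKM and 26.3 and 32.02 RPF RPKM (relative TE 3.37 ± 0.31, adjusted p = 0.00172). Both RPF values were above both mRNA values for Reln, Cd5l and Kdr, and both were below for Clec4f. These mRNAs were scarce, with class medians of 16.4, 12.01 and 7.98 mRNA RPKM. Scarce mRNAs became members only with a high TE, and all members at a median of 7.02 mRNA RPKM had a median relative TE of 1.09, above that of the endothelial genes. All members at 10.1 and 14.4 mRNA RPKM had 0.74 and 0.39. The fit itself needed only a mean RPF RPKM of at least 1. Under that filter, the medians of 17 stellate, 18 Kupffer and 16 endothelial genes were 1.28, 0.82 and 0.86 above the reference. The reference was the median of all fitted genes that met the mRNA threshold. In bulk liver, fewer cells of a type and less RNA per cell cannot be told apart, and the RNA-seq and Ribo-seq aliquots may differ in their cells. Summed RPKM of the 8 Kupffer markers were 112.0 and 126.2 in RNA-seq and 203.0 and 153.6 in Ribo-seq, and whether tissue composition differed between the aliquots was not tested.

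RNAs without a known long reading frame serve as a reference for reads that need not come from translation. Of 36 measured on the list, 9 met both thresholds. Of these, 6 passed above and 1 below, with a median of 2.29. Malat1, a nuclear RNA, had 76.7 and 88.9 mRNA RPKM and 636.7 and 375.9 RPF RPKM, a TE of 6.11 and a relative TE of 2.29 ± 0.29 (limma, adjusted p = 0.00315). Rpph1, the RNA of RNase P, had 6.33 and 10.4 mRNA RPKM and 2752 and 2825 RPF RPKM, a TE of 333.1 and a relative TE of 8.13 ± 0.29 (limma, adjusted p = 0.00107), the highest of all members. Neat1, of nuclear paraspeckles, had 51.2 and 64.8 mRNA RPKM and 747.7 and 598.8 RPF RPKM, but its RPKM rests on 20769 bases in RNA-seq and 3185 in Ribo-seq, and its relative TE was 0.54 on a common length. Snhg8, a host of a small nucleolar RNA, passed below with 33.97 and 30.2 mRNA RPKM and 16.4 and 18.1 RPF RPKM (relative TE -1.17 ± 0.23, adjusted p = 0.0110). Snhg8 no longer passed without RNA-seq library M1 (-1.10) and without RNA-seq library M2 (-1.23). On a common length the median of the class was 0.35 above the member median, and over the 24 fitted genes of the list it was -0.82. The mRNA libraries selected poly(A), and which of these RNAs carry a tail was not examined, so their TEs, that of Rpph1 included, may not be comparable with the rest. Whether these reads came from ribosomes was not tested.

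Over all protein-coding members with a mean of at least 10 mRNA RPKM, the lowest 10 that passed the test were Cnbd2, Hamp, Mlxipl, Echdc2, Rpl36, Apoc3, Kyat1, Nlrp6, Mt1 and Pabpn1. Echdc2, a mitochondrial enoyl-CoA hydratase domain protein, had 1100 and 836.4 mRNA RPKM and 33.3 and 46.6 RPF RPKM, a TE of 0.0412 and a relative TE of -4.88 ± 0.27 (limma, adjusted p = 0.00116). Kyat1, a kynurenine aminotransferase, had 371.9 and 206.1 mRNA RPKM and 14.9 and 12.3 RPF RPKM (relative TE -4.62 ± 0.32, adjusted p = 0.00125), and Pabpn1, the nuclear poly(A)-binding protein, had 189.0 and 240.9 mRNA RPKM and 12.9 and 11.1 RPF RPKM (relative TE -4.42 ± 0.24, adjusted p = 0.00116). Cnbd2 had 3737 and 1447 mRNA RPKM and 91.8 and 29.7 RPF RPKM (relative TE -5.75 ± 0.63, adjusted p = 0.00243), with exons that overlap those of Scand1.

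The highest 10 were Gm20594, Pex13, Fam32a, Scarb2, Rabggtb, Fads2, Abca6, Nadk2, Dars and Wfdc21. Pex13, of peroxisomal import, had 10.2 and 9.83 mRNA RPKM and 203.6 and 436.7 RPF RPKM, a TE of 31.9 and a relative TE of 4.60 ± 0.40 (limma, adjusted p = 0.00163), and its exons overlap those of Pus10. Rabggtb, a subunit of Rab geranylgeranyl transferase, had 43.9 and 37.9 mRNA RPKM and 591.4 and 320.4 RPF RPKM (relative TE 3.14 ± 0.31, adjusted p = 0.002003), and its annotated exons hold Snord45b and Snord45c. Fam32a had 16.8 and 17.1 mRNA RPKM and 324.9 and 198.3 RPF RPKM (relative TE 3.62 ± 0.27, adjusted p = 0.00129) and was at 4.32 on a common length. Nadk2, the mitochondrial NAD kinase, was at 2.91 and at 1.78 on a common length. Wfdc21, a small secreted protein, had 175.2 and 308.2 mRNA RPKM and 2289 and 1673 RPF RPKM (relative TE 2.80 ± 0.33, adjusted p = 0.00280). A total of 155 members had an annotated small RNA within an exon, and 19.4% of them passed above and 33.5% below, against 26.2% and 20.2% of all members.

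Relative TE was lower at higher mRNA levels. In the lowest of the 10 bins by mRNA the median relative TE was 1.94, and in the highest it was -1.51. Across the members, Spearman's correlation coefficient with mRNA RPKM was -0.73 (n = 3991 genes, a description). The RPF threshold sets part of this, since no gene of the lowest 4 bins passed below, and mRNA RPKM is the divisor of TE. Among the 1208 members with a mean of at least 50 mRNA RPKM, where the threshold removes few genes, it was -0.27.

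Relative TE also moved with GC content and length. The bin with the lowest GC content (median 40.1%) had a median of 1.02, and the bin with the highest (58.8%) had -0.94. For transcript length the medians ran from -1.27 at 669 bases to 1.26 at 6740 bases. The coefficient was -0.44 for GC content (n = 3983) and 0.47 for transcript length (n = 3991), and -0.35 and 0.33 among members with at least 50 mRNA RPKM. The features go together, since the shortest bin had a median mRNA level of 113.1 RPKM and the longest 8.04. In the median gene, the RPKM length was 0.999 times that of the GENCODE transcript in Ribo-seq, and 1.92 times its coding length.

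**Figure D3:**
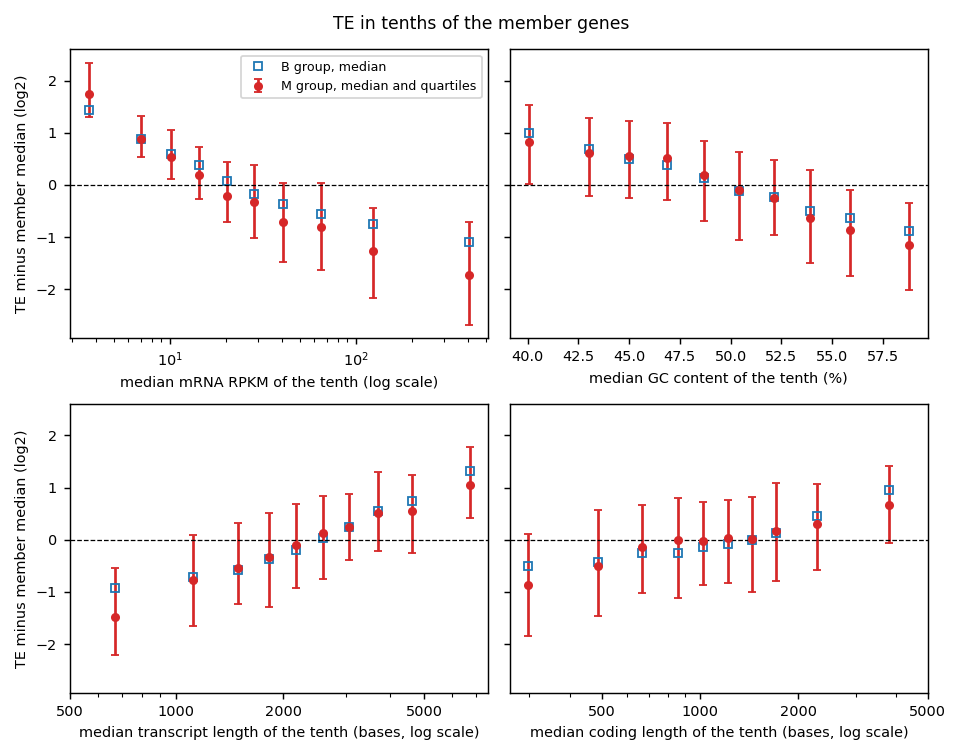
TE minus the member median (log2, y axis) in 10 equal bins of the members by mRNA RPKM, GC content, transcript length and coding length (x axes, medians of each bin). Red points and bars are medians and quartiles in the M group and blue squares are medians of the same genes in the B group. Medians fall with mRNA level and GC content and rise with length in both groups.

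Some class differences were smaller among genes of like length. Large subunit ribosomal proteins were -1.69 from the member median, -1.43 from members of the same bin of GC content and -0.39 from members of the same bin of transcript length. Small subunit genes were -1.38, -1.07 and -0.23 on the same 3 scales. Complex I genes were -1.78, -1.54 and -0.51, and mitochondrial ribosomal proteins -1.14, -0.77 and -0.12. Short mRNAs are in part these very classes, so length and class cannot be fully told apart. Apolipoproteins (-1.45, -1.29 and -0.93), spliceosome genes (-0.99, -1.25 and -1.13) and lysosomal genes (0.78, 0.86 and 0.90) were as far or nearly as far from the median of like genes, except that apolipoproteins were closer within bins of length. Of the 42 classes, 2 changed side of the median within bins of length and 8 within bins of GC content. Per coding length, 11 of the 41 classes with a value changed side, among them fatty acid synthesis (-0.11), beta oxidation (-0.05) and endothelial genes (-0.31).

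The deposited lengths bear on single genes. They were equal in the 2 assays for 2488 members, within 5% for 3232 (81.0%) and more than 1.5-fold apart for 265 (6.64%). Where the RNA-seq length was the longer by over 1.5-fold, 73 of 148 genes passed above (49.3%), against 25.5% of the genes with lengths within 5%. Naca, a chaperone of nascent chains, was at 1.64 ± 0.21 on lengths of 7034 and 1229 bases and at -0.88 on a common one. Rora, a nuclear receptor, went from 5.25 to 2.31, and the complex I subunit Ndufv3 from -4.05 to -2.38.

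The betaine group gave the same measurement in 4 other libraries, of which the Ribo-seq ones were shallower, with 257086 and 141890 reads. Under the same rule 3025 genes were members there, and 2768 genes were members in both groups, 69.4% of the M list and 91.5% of the B list. For the 3991 M members, Spearman's correlation coefficient between the TEs of the groups was 0.753 (a description across genes, which share length and base composition). Of the 1047 members that passed above in the M group, 934 (89.2%) were above the member median in the B group, and of the 805 below, 767 (95.3%) were below it. Of the 42 class medians, 31 were on the same side of the member median in both groups. In the order M, B, complex I was at -1.78 and -1.05, large subunit ribosomal proteins at -1.69 and -1.16, and apolipoproteins at -1.45 and -1.27. Other classes came closer to the median in the B group. Complexes II to V were at -1.63 and -0.71, and small subunit ribosomal proteins at -1.38 and -0.67. Splicing factors were at -0.99 and -0.31, and lysosomal genes at 0.78 and 0.25. Lipogenic genes were at 0.39 and -0.36, on opposite sides, and cholesterol synthesis at 0.67 and 0.05.

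**Figure D4:**
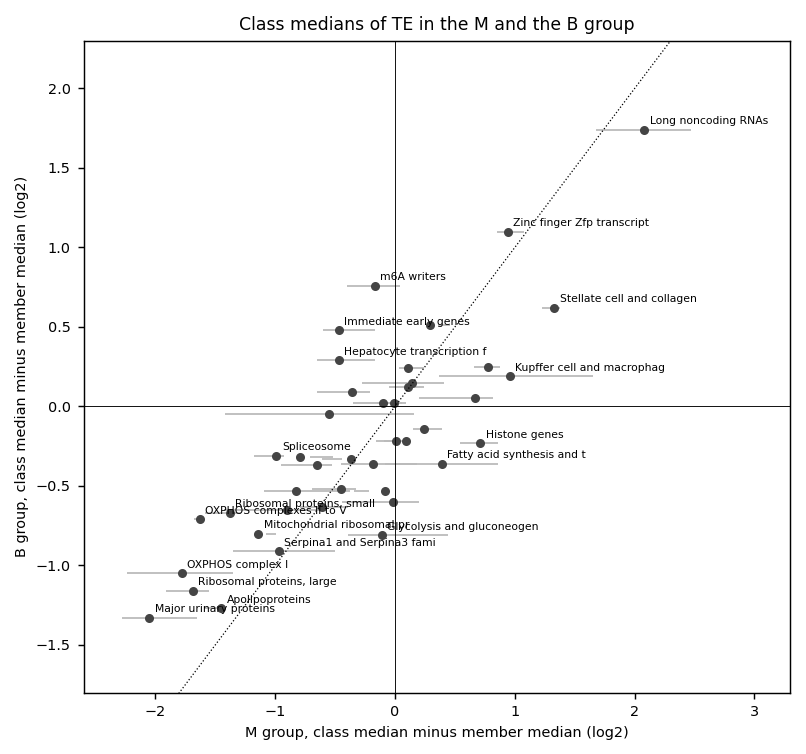
Class medians of TE minus the member median (log2) in the M group (x axis) and for the same genes in the B group (y axis), for the 42 classes with at least 5 members. Grey lines give the range of the M median over the 4 pairings of an RNA-seq with a Ribo-seq library, and the dotted line marks equal values. Ribosomal, respiratory chain, urinary and apolipoprotein classes are at the lower left, and 31 classes share their side in both groups.

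The difference in TE between the groups was tested per gene by the limma interaction of assay and group. Of 8253 genes fitted, 1 passed (0.0121%), Gm20594, and 562 of 3973 fitted members had an unadjusted p under 0.05. With the library number as a block, 0 members passed and 392 had an unadjusted p under 0.05. Gm20594 had 102.7 and 128.4 mRNA RPKM in M1 and M2 and 27.8 and 37.1 in B1 and B2, and its difference was 5.19 ± 0.37 (adjusted p = 0.0457). Idi1 had a TE of 8.88 without betaine and 0.653 with it, from 2.93 and 3.54 mRNA RPKM in M1 and M2 and 29.2 and 11.7 in B1 and B2. Its RPF RPKM were 28.8 and 28.7 in M1 and M2 and 9.50 and 17.2 in B1 and B2. The B minus M difference in log2 TE was -3.30 ± 0.72 (adjusted p = 0.270), which did not pass. The corresponding differences were -2.40 ± 0.56 (adjusted p = 0.270) for Tm7sf2, -4.49 ± 0.68 (adjusted p = 0.270) for Cyp51, which was not a member, -1.92 ± 0.60 (adjusted p = 0.328) for Apoa4, -3.60 ± 0.82 (adjusted p = 0.270) for Fads2 and -0.11 ± 0.97 (adjusted p = 0.973) for Bhmt. A p that misses the threshold with 2 libraries per cell of the design does not show equal TE.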

How the data were processed

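Liver mRNA (RNA-seq) and RPFs (Ribo-seq) were measured in 2 libraries each of the M and B groups. FANSe2 was the authors' mapper, mm10 the genome and edgeR the tool of their own comparisons. The deposited values were RPKM of each gene symbol. How the gene lengths behind the RPKM were chosen is not given in the sources used here. Read counts and lengths were recovered from the steps of 1 read in the deposited RPKM. They were used for depth and for alternatives only.

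TE was the ratio of mean RPKM. For single genes, limma 3.58.1 (R 4.3.3) was used (two-sided, with a variance trend) on log2(RPKM + 0.1), with 2 libraries per assay and Benjamini-Hochberg adjustment over 9588 genes. The TE of B against M was the interaction of assay and group. The procedure was tested on simulated data. Tables were made with Python 3.11.15, pandas 2.3.3 and numpy 2.4.6. Coordinates, biotypes, GC content and coding lengths came from GENCODE M21 (GRCm38), to which 3983 members matched, and promoter sequences from RefSeq (GRCm38.p6).

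The member rule, the 46 gene lists and the tests were chosen with earlier results of these data known. Genes named were the called members with the 3 highest and 3 lowest relative TEs of a class, the members nearest the class median, the 10 highest and 10 lowest coding genes with a mean of at least 10 mRNA RPKM, and a set of genes with known control. Mup8, Hamp2, Ndufb4 and, from that set, Amd1 were named after their values were seen. Rpl14, Fau, Rps6 and Rpl5 were named only for the promoter windows shown, which were chosen with the calls known. Class medians were described with no test.

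Alternatives were pseudocounts of 0.01 and 1, other filters and scalings, a stricter RPF threshold or adjusted p, at least 20 RPF reads, no variance trend, voom on recovered reads, each library left out, and the library number as a block. Equal lengths in both assays, coding lengths, and all fitted genes in place of members were added after seeing the data. So were bins of GC content and length, and a crossed block. Intervals were not computed, and standard errors cover the spread between libraries only.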

Additional observations from a re-analysis of the deposited data

Results flagged for a closer look

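Gm20594 was singled out because its TE passed the test of the difference between the groups. The B minus M difference in log2 TE was 5.19 ± 0.37 (limma interaction, adjusted p = 0.0457). It did not pass with the library number as a block (limma, smallest adjusted p over the 8253 fitted genes 0.616) or with the numbers crossed in the B group (0.119). Its mRNA RPKM were 102.7 and 128.4 in M1 and M2 and 27.8 and 37.1 in B1 and B2, and its RPF RPKM were 4908 and 5625 in M1 and M2 and 47166 and 38066 in B1 and B2. The groups overlapped in neither assay. It lies on chr6:79817916-79818364 (GRCm38), with a length of 334 bases. Whether its RPF reads came from ribosomes was not tested.

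Ribo-seq also held signal for genes outside the members. A total of 197 entries had at least 10 RPF RPKM and over 3 RPF reads in both M libraries and under 1 mRNA RPKM in at least 1 RNA-seq library. By GENCODE biotype, 80 were snoRNAs, 68 protein coding, 29 miRNAs and 5 scaRNAs. Snord14d had 1419 and 2743 RPF reads, Rnu6 had 1001 and 3905, and Mir122, a liver miRNA, had 1763 and 9273, and each of the 3 was listed at 0 mRNA RPKM in M1 and M2. These RNAs are short and without a poly(A) tail, and whether their reads came from ribosomes was not tested.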

How the results depend on the processing

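In the M group, 1047 members passed the test above and 805 below. At an RPF threshold of 50 RPKM the counts were 291 and 229 of 1064 genes, and with RPKM rescaled to a common sum they were 1999 and 333. At an adjusted p under 0.01 the count above was 658, and with at least 20 reads in both Ribo-seq libraries it was 601 of 2730. Leaving out each library in turn gave 734 to 1121 above and 685 to 843 below. With the library number as a replicate block the counts were 1068 and 821. Across 3991 genes, the deviations of same-numbered libraries correlated at -0.0655 (M) and -0.112 (B), so the numbers were not taken as pairs. In the B against M interaction, 1 member passed, 0 with the block (smallest adjusted p = 0.616) and 0 with the numbers crossed in the B group (0.119), an alternative chosen after seeing the data. Of 2120 results for single genes, 58 no longer passed, 9 passed in addition, and 13 changed sign without passing on the other side. Of the 13, 11 had not passed to begin with. The other 2 were Naca, at -0.88 on a common length, and Prpf8, at -0.01 per coding length, and both alternatives were chosen after seeing the data. The count of 27 classes below the member median stayed within 1.5-fold in each alternative run for it. Which classes these were changed more, since per coding length 11 of 41 classes changed side while the count was 30. The RPF libraries set the precision, since the median member had 31 reads in M1.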
